A study of Mus musculus with 12 samples.

Results

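The 39 genes described here encode the enzymes of glycolysis, the enzymes and regulators of glycogen breakdown and synthesis, and the sugar, lactate and pyruvate carriers that serve them. They were taken by name from the GENCODE M21 annotation of mouse build GRCm38, and every listed AGO2 peak that overlapped one of them by at least 1 nt on the same strand was used, whatever its score. The rule used no measured value. Argonaute 2 (AGO2) is the protein that carries a microRNA to its target mRNA, and eCLIP (enhanced crosslinking and immunoprecipitation) sequences the RNA fragments crosslinked to it. The tissue was tibialis anterior muscle of male mice aged 6 months, WT (labelled C57BL/6) or miR-486 KO (miR-486-/-, labelled FVB N/J, although the methods describe 1 common background and a CRISPR deletion), so genotype and labelled strain cannot be told apart. Each of 2 sets of libraries held 1 total IP and 1 size-matched input for each genotype. The methods give several muscles per genotype and duplicate runs, but not which muscles went into which library, so the spread between libraries may be technical, and permuting 2 libraries against 2 cannot give an exact two-sided p below 0.333. Genotypes were therefore not tested, and the sets are given side by side.

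Fast-twitch muscle lives on glycogen. Phosphorylase cuts glucose units off the polymer when phosphorylase kinase switches it on, phosphoglucomutase feeds them into glycolysis, and the pathway ends in pyruvate, which lactate dehydrogenase turns into lactate during a sprint. Glycogen is rebuilt from UDP-glucose on a glycogenin core by glycogen synthase and the branching enzyme, with protein phosphatase 1 held on the particle by targeting subunits such as those from Ppp1r3a and Ppp1r3c. MicroRNAs usually lower protein output by pairing their seed, bases 2 to 8, with a target mRNA, most often in its 3′ UTR.

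All 39 genes were found among the 55450 of the annotation, and 38, 36, 38 and 38 of them had peaks in the libraries WT set 1, KO set 1, WT set 2 and KO set 2. Their peaks numbered 698 of 92451, 805 of 119859, 1268 of 244814 and 1318 of 256219. The 7 fast-fibre markers had 362, 454, 691 and 662 peaks, whereas the 4 slow-fibre markers had 93, 81, 8 and 7. Set 1 therefore held more slow-fibre peaks in both genotypes, and the part of fibre type in the results was not tested. In whole muscle, fewer cells of a type and less RNA per cell cannot be told apart. Total read depth is unknown, but whole reads could be recovered for many peaks, and the total IP libraries were 2.18, 2.30, 1.44 and 1.70 times as deep as their inputs, in the same order.

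The sequences printed here are the 3 sites past the thresholds in all 4 libraries, 2 of those past them in 3, and 1 peak called in the direct WT over KO list of set 1. They are read from GRCm38 on the strand of the gene, 5′ to 3′. Capitals mark a 7-nt match to the seed of miR-133b-3p in Pgam2 and of miR-30a-5p in Ppp1r3c, and in Hk1 a run shared with the start of miR-133b-3p itself. The first 3 were past the thresholds in all 4 libraries, Eno3 in KO set 1 only through a short intronic peak at its 3′ end:
Pgam2 chr11:5803365-5803594, minus strand: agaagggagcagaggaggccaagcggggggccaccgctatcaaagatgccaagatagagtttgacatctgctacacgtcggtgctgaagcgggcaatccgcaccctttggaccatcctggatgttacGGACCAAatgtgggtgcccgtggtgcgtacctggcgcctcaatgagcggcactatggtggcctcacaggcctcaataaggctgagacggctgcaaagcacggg
Eno3 chr11:70658594-70658668, plus strand: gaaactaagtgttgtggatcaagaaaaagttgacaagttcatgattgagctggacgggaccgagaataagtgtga
Hk1 chr10:62288939-62288966, minus strand: ttcttTTTGGTCCCCTTaagaagcaaag
The next 2 were past the thresholds in 3 libraries and lie over coding exons:
Phka1 chrX:102574961-102575076, minus strand: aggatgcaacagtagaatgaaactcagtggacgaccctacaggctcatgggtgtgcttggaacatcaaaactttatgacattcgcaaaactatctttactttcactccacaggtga
Ugp2 chr11:21323190-21323305, minus strand: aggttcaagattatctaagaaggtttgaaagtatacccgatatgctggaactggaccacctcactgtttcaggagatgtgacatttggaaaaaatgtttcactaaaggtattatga
The last is the coding peak of Ppp1r3c with the largest direct difference between WT and KO in set 1:
Ppp1r3c chr19:36733624-36733839, minus strand: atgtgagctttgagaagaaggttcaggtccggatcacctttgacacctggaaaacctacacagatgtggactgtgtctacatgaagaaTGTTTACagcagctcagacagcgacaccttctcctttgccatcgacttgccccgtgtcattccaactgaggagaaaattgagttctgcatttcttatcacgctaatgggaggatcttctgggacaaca

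Most peaks of these genes lay in coding sequence and few in the 3′ UTR. The CDS share was 71.3% of 698 peaks in WT set 1 (95% Wilson interval 67.9 to 74.6), 58.5% of 805 in KO set 1 (55.1 to 61.9), 65.3% of 1268 in WT set 2 (62.6 to 67.9) and 66.8% of 1318 in KO set 2 (64.3 to 69.3). Over all listed peaks the CDS share was 51.8%, 35.5%, 40.2% and 39.7%. The 3′ UTR held 7.45%, 10.1%, 8.28% and 8.35% of the peaks of the glycolysis and glycogen genes, against 19.3%, 18.3%, 12.2% and 11.4% of all peaks. Introns held 15.5%, 24.8%, 20.9% and 19.6%, against 21.4%, 39.5%, 41.7% and 43.1%. The intervals cover counting error only, and adjoining peaks of a gene are not independent. Aldoa, the aldolase of muscle, had 24 CDS peaks and 1 3′ UTR peak among 26 in WT set 1, and Pygm, muscle glycogen phosphorylase, had 42 and 2 among 48.

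**Figure D1:**
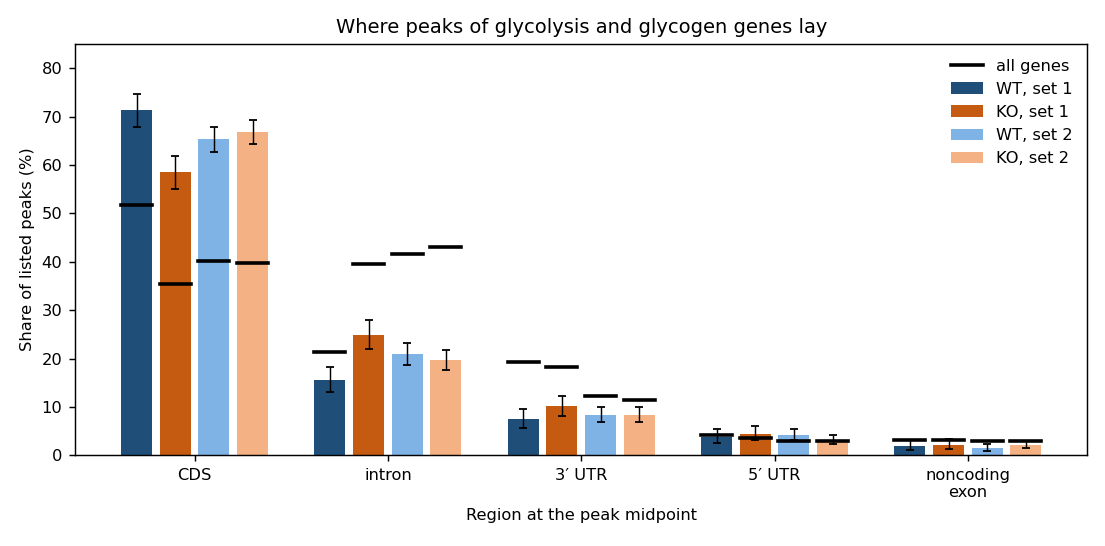
Share of listed peaks (%) by the region at the peak midpoint, for the 39 genes (bars, 95% Wilson intervals) and for all genes (black lines), in the 4 total IP libraries. The bars stand above the lines in CDS and below them in introns and the 3′ UTR in each library.

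Enrichment over input was called where the log2 fold and the −log10 p of the list were both at least 3. In WT set 1, 81 peaks of the 39 genes (11.6%) passed, where 3.57% of all listed peaks did. In KO set 1 it was 9 peaks (1.12%, against 0.848%), in WT set 2 it was 28 (2.21%, against 1.42%) and in KO set 2 also 28 (2.12%, against 1.23%). These peaks came from 21, 4, 10 and 9 of the genes. Among all genes with a listed peak, 14.7%, 5.11%, 12.3% and 11.6% had at least 1 such peak. The high count of WT set 1 was thus not met in the second WT library. Adjoining peaks are often slices of 1 bound stretch, and merging them left 52, 5, 16 and 17.

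The input moved with that count. At the 379 peaks of these genes that were listed in both genotypes of set 1 and overlapped by at least 50% of each other, the median log2 fold over input was 1.59 in WT and 0.15 in KO, but the median WT over KO fold of the total IP libraries was 0.51. The remainder is a KO input above the WT input by a median log2 of 1.08 at these places, against 0.38 over the 27710 matched peaks of all genes. In set 2 the same quantity was −0.06 at 724 matched peaks, against 0.09 over 81603. Its part in the enrichment of WT set 1 was not tested.

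**Figure D2:**
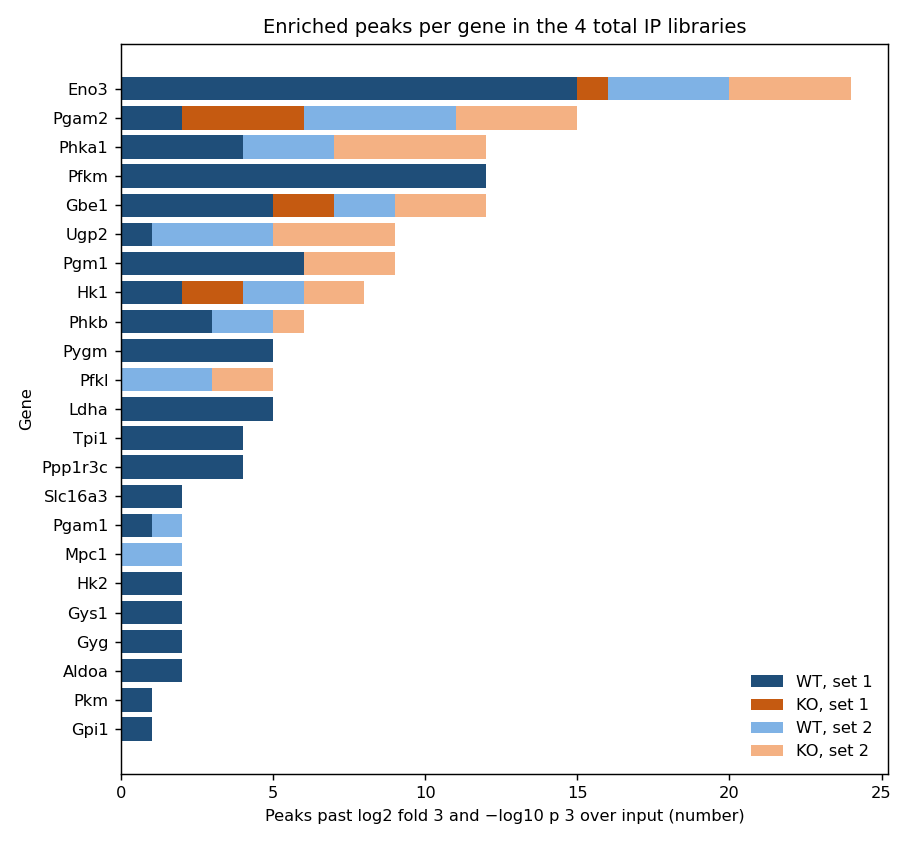
Number of peaks past log2 fold 3 and −log10 p 3 over input for each gene with at least 1, stacked by total IP library. Pfkm, Pygm, Ldha and Tpi1 had such peaks in WT set 1 but in no other library, whereas Hk1, Pgam2, Eno3 and Gbe1 had them in all 4.

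Counting adjoining peaks as 1 site, the lower, energy-yielding steps of glycolysis held 2 of the 3 sites past the thresholds in all 4 libraries. Pgam2 encodes the muscle form of phosphoglycerate mutase, which moves the phosphate of 3-phosphoglycerate. Its site filled part of exon 1 of 3, in the CDS. The highest log2 fold over input there was 6.05 in WT set 1, 3.60 in KO set 1, 3.60 in WT set 2 and 3.71 in KO set 2. In KO set 2 the top peak held 13894 total IP reads and 623 input reads. Both genotypes were thus bound at the same place, with the highest fold in WT set 1. The 7-nt match to the miR-133b-3p seed, GGACCAA, lay in the windows (50 nt to each side of the peak midpoint) of enriched Pgam2 peaks in all 4 libraries, WT and KO. Among all CDS windows 2.01%, 1.68%, 1.35% and 1.32% held it, and among those of the 39 genes 1.61%, 1.49%, 1.33% and 1.02%. This match was searched after the site was known.

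In set 1 the difference between genotypes at Pgam2 was local. The 7 KO peaks with midpoints inside the site had log2 KO over WT folds from −2.08 to −1.28 (median −1.88), and the 11 KO peaks elsewhere in the gene had −0.66 to 0.32 (median −0.10). One peak inside held 1025 KO and 2628 WT reads, while its neighbour at chr11:5803651-5803721 held 785 and 562. In set 2 the 7 peaks inside ranged from −0.15 to 0.05 and the 12 outside from −0.26 to −0.03. A difference of that size was not seen in set 2, where the top peak held 13894 KO and 12305 WT reads. No peak of Pgam2 reached the log2 threshold of 3 in a direct list.

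**Figure D3:**
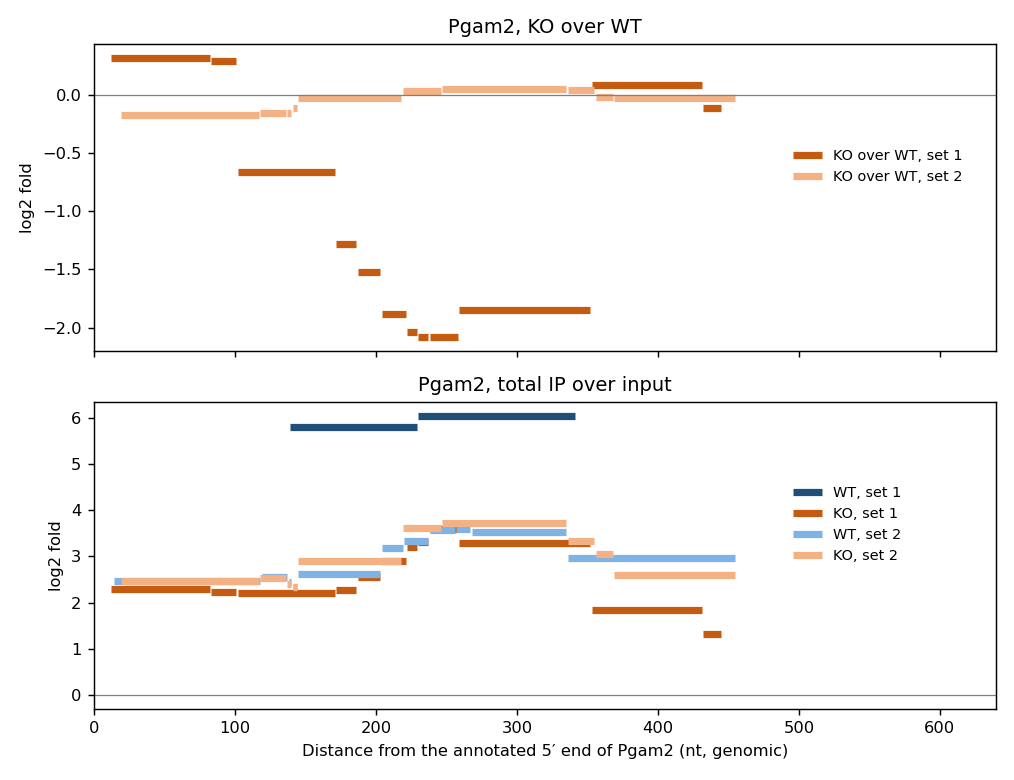
Log2 folds of the listed peaks along the first part of Pgam2, by distance from the annotated 5′ end of the gene (nt), with KO over WT above and each total IP library over its input below; each bar spans 1 peak. In set 1 KO over WT reaches −2.08 over the site and lies between −0.66 and 0.32 on both sides, whereas set 2 stays between −0.26 and 0.05.

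Eno3, the muscle enolase, had 15, 1, 4 and 4 enriched peaks. Its site across the end of exon 5 of 12 had top log2 folds over input of 4.68, 3.01, 3.43 and 3.50 in WT set 1, KO set 1, WT set 2 and KO set 2. In set 1 these top folds were of short intronic peaks next to the exon, and in set 2 of exon peaks. The only peak of the site that passed in KO set 1 was intronic, at chr11:70658666-70658668 (148 and 7 reads). The exon peak of KO set 1 had 2.11 (725 and 72 reads). The peak that covers most of the exon in WT set 1 had 4.60 and held 1218 total IP reads against 22 in the input. A second site in exon 6, chr11:70659023-70659161, was past the thresholds in WT set 1, WT set 2 and KO set 2, with top log2 folds of 4.50, 3.23 and 3.34, and reached 2.19 in KO set 1. WT over KO at the first site was 0.84 and 0.91 in set 1 and −0.11 in set 2. Pgam1, the form of the mutase outside muscle, had its enriched peaks in the 3′ UTR, at chr19:41917919-41918095, with 29 total IP and 0 input reads in WT set 1 and 55 and 3 in WT set 2. In KO set 2 the same place had a log2 fold of 2.98 with 67 and 4 reads, just under the threshold, and in KO set 1 it had 2.80 with 16 and 0.

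Gapdh, Pgk1 and Pkm encode the enzymes that make NADH and ATP. Gapdh, glyceraldehyde-3-phosphate dehydrogenase, had 3, 4, 9 and 5 peaks in the 4 libraries, few for an mRNA that muscle makes in quantity, and none was enriched. Gene models named by a symbol of the 39 genes followed by -ps, for pseudogene, numbered 11 and held 8 to 14 peaks per library. Pseudogene copies under other names were not counted. The part of such copies in these counts was not tested. Pgk1, phosphoglycerate kinase, had 6, 4, 10 and 6 peaks and none past the thresholds. Pkm, pyruvate kinase, had 22, 20, 42 and 34, of which 1 passed, in WT set 1 (73 total IP reads, 2 input reads).

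In the upper steps of glycolysis, which spend ATP to split glucose, enrichment was mostly that of WT set 1. Pfkm, the muscle phosphofructokinase that sets the pace of the pathway, had 12 enriched peaks in WT set 1 and 0 in the other 3 libraries. At chr15:98123796-98123917 in its CDS WT set 1 held 567 total IP reads and 15 input reads. KO set 1 held 332 and 83 at nearly the same place, a log2 fold of 0.78. The 2 total IP libraries thus differed less (log2 0.93) than the folds over input did. Tpi1, triose-phosphate isomerase, had 4 enriched peaks in WT set 1, with a top log2 fold of 5.24 (578 and 6 reads). Its KO set 1 peak at that place had 1.29 (348 and 61 reads). Hk2, the insulin-responsive hexokinase, and Aldoa each had 2 in WT set 1 and none elsewhere. Pfkl, the liver phosphofructokinase, was the reverse, with 3 and 2 enriched peaks in WT and KO of set 2 and 0 in set 1, and at the CDS place chr10:77988865-77988969 that both shared it held 32 total IP and 1 input reads in WT and 28 and 0 in KO.

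Hk1, the hexokinase of most other tissues, carried an unusual site. It lay in intron 13 of a 22-exon transcript, 1208 nt from the nearest exon, and spanned 28 nt. Total IP and input reads were 43 and 0 in WT set 1, 43 and 1 in KO set 1, 25 and 0 in WT set 2, and 43 and 0 in KO set 2. The log2 folds over input were 4.30, 3.23, 4.12 and 4.66. WT and KO did not separate, with WT over KO at 0.13 in set 1 and −0.69 in set 2. The capitals in its sequence above are a 12-nt run equal to the first 12 of the 22 bases of miR-133b-3p (RefSeq, GRCm38.p6):
miR-133b-3p: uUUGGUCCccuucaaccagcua
The run has the sense of the microRNA itself and is not a pairing site for it. Among all listed peaks, windows reaching 50 nt to each side of the peak midpoint and holding this run numbered 31, 40, 36 and 34 in the 4 libraries. Of them, 16, 19, 18 and 17 belonged to peaks past the thresholds. Of all listed peaks, 3.57%, 0.848%, 1.42% and 1.23% were past the thresholds. How many of the windows with the run lie at microRNA genes was not counted. The run was noticed after the site had been chosen for its recurrence.

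Lactate dehydrogenase and the carriers handle what glycolysis makes. Ldha, the muscle subunit, had 5 enriched peaks in WT set 1 and none elsewhere. Its CDS peak at chr7:46850275-46850351 had a log2 fold of 4.67 (834 and 14 reads) in WT set 1, and 1.59 (471 and 67 reads) at the same place in KO set 1. WT over KO there was 1.012 in set 1, and in set 2 the long peak at that place had −0.04. Ldhb, the heart subunit, had no enriched peak. Slc16a3, the lactate exporter of fast fibres, had 2 in WT set 1. Mpc1, of the mitochondrial pyruvate carrier, had 2 intronic ones in WT set 2. Slc2a4, the insulin-responsive glucose transporter, Slc2a1 and Mpc2 had none. Fbp2, the muscle fructose bisphosphatase that runs against glycolysis, was listed with 1, 0, 9 and 11 peaks and none past the thresholds.

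Among the genes of glycogen breakdown, Pygm had 5 enriched CDS peaks in WT set 1 and none in the other libraries. Its 48 WT peaks of set 1 had a median log2 fold over input of 2.23, and its 48 KO peaks had 0.22. The direct comparison moved less and turned between sets. In set 1, 46 of 48 WT over KO folds were above 0 (median 0.98, range −0.43 to 1.63), and in set 2, 5 of 80 were (median −0.23, range −0.62 to 0.24). At chr19:6390349-6390441 WT set 1 held 1037 reads and KO set 1 held 436. At chr19:6390357-6390397, in the same stretch, WT set 2 held 1338 and KO set 2 held 1772. At the 29 matched Pygm peaks of set 1 the KO input stood above the WT input by a median log2 of 1.19, and at 61 in set 2 by 0.06.

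Phosphorylase kinase, which activates phosphorylase, has a regulatory subunit encoded in muscle by Phka1. It had 4, 0, 3 and 5 enriched peaks. Its most recurrent site, printed above, lies in exon 15 of 33 and had top log2 folds of 4.54 in WT set 1, 3.06 in WT set 2 and 3.71 in KO set 2, with 2.10 in KO set 1. A WT peak of set 1 in intron 21, chrX:102546470-102546544, passed the direct threshold with 14 WT reads and 0 KO reads. In set 2 a longer peak at that place held 96 WT and 77 KO reads, a log2 fold of 0.42. Phkb, the beta subunit, had an intronic site at chr8:85964791-85965135 in both libraries of set 2, with 62 total IP and 1 input reads in WT and 50 and 0 in KO. Phkg1, the catalytic subunit of muscle, had 29, 24, 37 and 39 peaks and none enriched, and Phka2, Phkg2 and the brain phosphorylase Pygb also had none.

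The genes of glycogen synthesis gave sites in both genotypes. Gbe1, the branching enzyme, had 5, 2, 2 and 3 enriched peaks. In its exon 16 at chr16:70561024-70561146 the top log2 fold was 4.02 in WT set 1, 3.61 in KO set 1 and 4.11 in KO set 2, and 2.67 in WT set 2. At its last coding exon, chr16:70568979-70569108, the values were 4.63, 4.19 and 3.96, and 2.88 in WT set 2. A 7-nt match to the seed of miR-206-3p lay in such a window around each of these last 3 enriched peaks. Of the CDS windows of the genes described here, 0.40% held it in WT set 1 and 0.42% in KO set 1. The share was 0.24% in WT set 2 and 0.23% in KO set 2. Over all listed CDS windows the shares, in that order, were 1.79%, 1.44%, 1.02% and 0.99%. By its midpoint the Gbe1 peak of KO set 2 counted as 3′ UTR. Of 3′ UTR windows in that library, 1.82% of those of the genes described here and 2.47% of all held the match. The 3 Gbe1 windows overlap, so their matches are not separate finds. Windows of other enriched peaks held other matches, for example let-7a-5p in Gyg, miR-29a-3p in Pgm1 and Pfkl, and miR-499-5p in Ugp2. The Ugp2 match lay in windows of short peaks at the edge of the printed site, which itself holds no searched match. At least 1 of 10 searched matches lay in 10.2%, 9.55%, 11.1% and 9.76% of CDS windows of the genes described here. Over all listed CDS windows it was 15.8%, 13.1%, 11.9% and 12.1%. miR-206-3p belongs to the muscle family whose better-known member is miR-1a:
miR-206-3p: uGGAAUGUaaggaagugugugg
Ugp2, which makes UDP-glucose, had 1, 0, 4 and 4 enriched peaks. At its printed site in exon 9 of 10 WT set 1 held 308 total IP and 3 input reads, and KO set 1 held 200 and 12, a log2 fold of 2.74. Pgm1, the phosphoglucomutase that joins glycogen and glycolysis, had 6 in WT set 1 and 3 in KO set 2, at 2 CDS places that both shared. Gys1, glycogen synthase, and Gyg, the glycogenin core protein, had 2 each in WT set 1. Ppp1r3a, the main glycogen-targeting subunit of phosphatase 1 in muscle, had 19, 34, 30 and 33 peaks and none past the thresholds.

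The direct lists, which set 1 total IP library against the other, placed few of these genes past the thresholds. WT over KO in set 1 called 9 of 698 peaks (1.29%, against 0.469% of all listed peaks), and KO over WT in set 1 called 0 of 805 (against 0.179%). In set 2 WT over KO called 0 of 1268 (against 0.0192%) and KO over WT called 2 of 1318 (0.152%, against 0.0144%). The lists hold the authors' p for 2 libraries, so a call compares those libraries and not the genotypes. Of the 9 calls, 8 were from Ppp1r3c and 1 from Phka1, and both KO calls of set 2 were from Gpi1.

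Ppp1r3c, which encodes the phosphatase subunit PTG that drives glycogen synthesis, differed most. All 8 WT peaks of set 1 were past the direct thresholds, with log2 WT over KO from 3.21 to 4.44 (median 3.76). Their WT and KO reads were 447 and 22 at the first peak of the 5′ UTR, 486 and 25 at the next, 166 and 19, 246 and 24, 287 and 28, 238 and 26, 962 and 51, and 550 and 36 along the CDS. Every WT count was well above its KO count. In set 2 all 7 WT peaks went the other way, with log2 folds from −0.93 to −0.38 (median −0.58). Their reads included 391 WT and 749 KO at chr19:36733626-36733842, nearly the coordinates of the 962 and 51 of set 1. The 2 sets did not overlap, and the sign of the difference was opposite.

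Over input, Ppp1r3c was highest in WT set 1 and similar between the genotypes of set 2. Median log2 folds over input were 3.05 in WT set 1, 0.43 in KO set 1, 1.10 in WT set 2 and 1.16 in KO set 2. At the 4 matched peaks of set 1 the KO input was below the WT input by a median log2 of −1.16 (range −1.73 to −0.73), and at the 7 of set 2 it was above by 0.64 (0.42 to 0.99). The inputs thus moved in the same direction as the total IP libraries in each set, unlike Pygm and Pfkm, whose KO inputs of set 1 were above WT by 1.19 and 2.01. The seed match of miR-30a-5p lay in the peak with 962 and 51 reads, which was printed for its fold in these data. In WT set 1, 0.60% of CDS windows of the genes described here held this match, against 0.78% of all listed CDS windows. In KO set 1 the shares were 0.64% and 0.66%. In set 2 they were 0.48% and 0.63% in WT, and 0.45% and 0.64% in KO. The match is in capitals in the Ppp1r3c sequence, and its part in the difference between WT and KO was not tested:
miR-30a-5p: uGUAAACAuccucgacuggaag

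**Figure D4:**
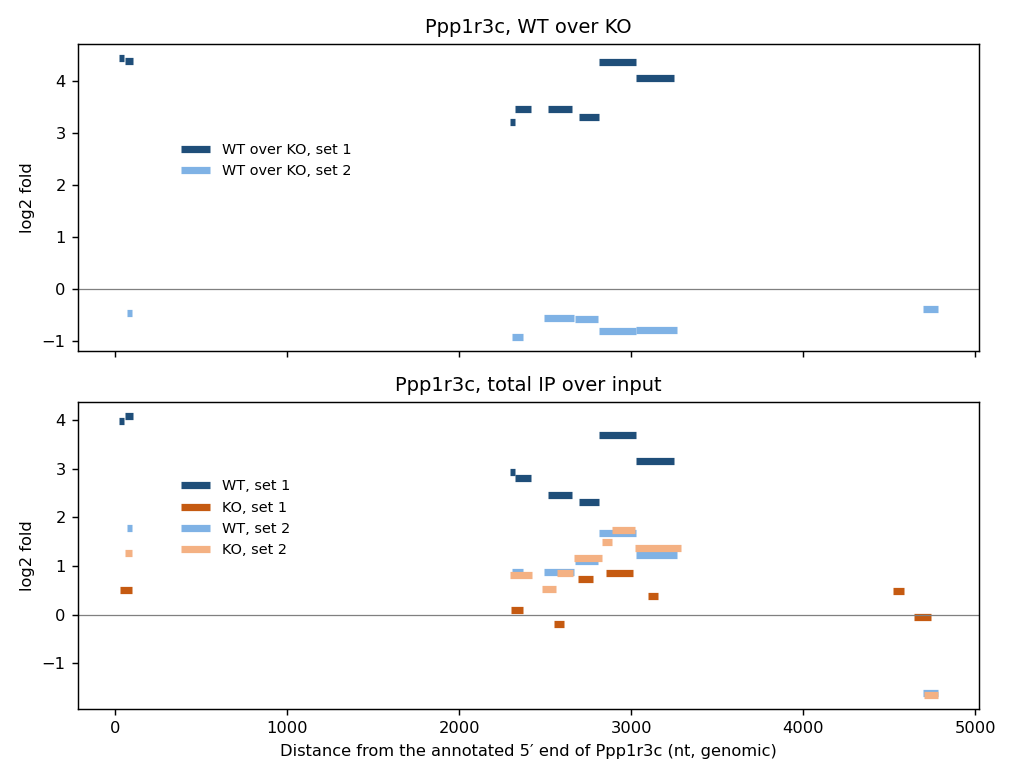
Log2 folds of the listed peaks along Ppp1r3c, by distance from its annotated 5′ end (nt, genomic), with WT over KO of both sets above and each total IP library over its input below; each bar spans 1 peak. The 8 peaks of set 1 lie between 3.21 and 4.44 and the 7 of set 2 between −0.93 and −0.38.

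Gpi1, glucose-6-phosphate isomerase, had its 2 calls in KO set 2 at neighbouring peaks that are exonic in a noncoding Gpi1 transcript and intronic (intron 9 of 18 exons) in the main one. The peak chr7:34209452-34209470 held 20 KO and 1 WT reads, and chr7:34209488-34209560 held 35 and 3. Neither was enriched over the KO input, which held 14 and 10 reads there, and no other library listed a peak at these places.

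Over all peaks of the 39 genes the median log2 WT over KO was 0.66 in set 1 and 0.07 in set 2, against 0.74 and 0.30 over all listed peaks. The mean of the sets was 0.36 with an SD of 0.42 (n = 2). Each direct list holds the peaks of its first library and carries 1 added read in the second, and the part of this in the medians was not tested. The KO over WT list of set 1 was also above 0 over all genes, at 0.72, while that of the 39 genes was −0.19. Peaks with a −log10 p of at least 3 over input gave 0.81 (261 peaks, 248 above 0) and −0.0070 (281 peaks), against 1.012 and 0.12 for such peaks of all genes. Without this filter, the median of CDS peaks in set 1 was 0.68 (0.82 over all genes) and that of 3′ UTR peaks −0.073 (0.54). In set 2 CDS peaks had −0.022 (0.052) and 3′ UTR peaks 0.31 (0.30).

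Gene by gene, 37 of 38 WT over KO medians were above 0 in set 1, as were 91.3% of those of all genes with a peak, and 23 of 38 in set 2, against 77.6%. These are medians over WT peaks, and the picture differed over KO peaks. There, 11 of 36 KO over WT medians were above 0 in set 1 (70.2% of all genes) and 23 of 38 in set 2 (67.6%). Gbe1 (0.60), Ppp1r3a (0.72), Gyg (0.28), Phkb (0.10) and Mpc1 (1.16) were thus above 0 in both directions in set 1. So were Pfkp (1.43), Phka2 (1.43), Phkg2 (1.05) and Slc2a1 (0.26), with 1, 7, 2 and 2 KO peaks. Ugp2 (0.35) was higher in KO in both. The lowest WT over KO median of set 1 was Ugp2 at −0.22 and the highest Ppp1r3c at 3.76. In set 2 they ran from −0.66 in Ldhb to 0.78 in Pgm2. By role, the median log2 WT over KO of set 1 was 0.82 for glycogen breakdown (234 peaks), 0.65 for upper glycolysis (174), 0.55 for transport (36), 0.52 for glycogen synthesis and its regulators (164), 0.41 for lower glycolysis (67) and 0.34 for lactate dehydrogenase (22). Over KO peaks of set 1, KO over WT was also above 0 for glycogen synthesis and its regulators (0.23 over 217 peaks) and for transport (0.066 over 47), so the direction of these groups turned with the list. The other 4 were below 0 there, from −0.40 in upper glycolysis to −0.26 in lactate dehydrogenase. In set 2 the same groups had WT over KO medians of 0.12, −0.0025, 0.14, 0.07, 0.09 and 0.07. All 6 medians of set 2 were between −0.0025 and 0.14. Fructose bisphosphatase, a role of 1 gene (Fbp2), had WT over KO of 1.16 in set 1 (1 peak) and −0.23 in set 2 (9 peaks).

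**Figure D5:**
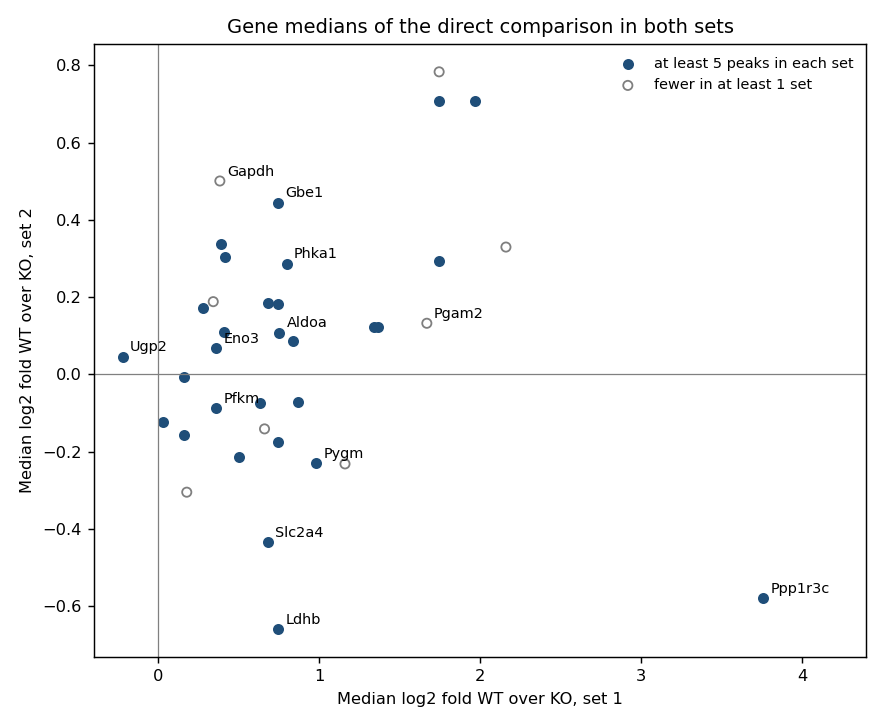
Median log2 WT over KO of each gene's listed WT peaks in set 1 (x axis) and set 2 (y axis); filled points have at least 5 peaks in each set. All but Ugp2 lie above 0 in set 1, although over KO peaks 11 of 36 genes had KO over WT above 0, set 2 spans −0.66 to 0.78, and Ppp1r3c is at 3.76 and −0.58.

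Of the 39 genes, 16 had no peak past the thresholds in any of the 8 lists. They were Pfkp, Aldoc, Gapdh, Pgk1, Eno1, Ldhb, Pygb, Phka2, Phkg1, Phkg2, Pgm2, Fbp2, Ppp1r3a, Slc2a1, Slc2a4 and Mpc2. Several encode the forms used outside muscle, and others, Phkg1, Ppp1r3a, Fbp2 and Slc2a4 among them, are muscle genes.

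Across all merged stretches that were past the thresholds over input, 41 were seen in 1 library, 10 in 2, 5 in 3 and 3 in all 4. The 5 seen in 3 libraries belonged to Eno3, Gbe1, Phka1 and Ugp2, and each missed the threshold in the remaining library with a top log2 fold between 2.10 and 2.88. Of the 41 seen once, Pfkm, Pygm, Ldha and Tpi1 gave theirs in WT set 1.

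The share of windows with at least 1 of 10 searched seed matches was below that of all listed windows in each library and region searched. The 7-nt complements of 10 microRNA seeds were searched on the gene strand, ACATTCC for miR-206-3p, CTACCTC for let-7a-5p, TACTTGA for miR-26a-5p, ACTGTGA for miR-27b-3p, GGCAGCT for miR-22-3p, TGTTTAC for miR-30a-5p, TGGTGCT for miR-29a-3p, TGCTGCT for miR-16-5p, AATGTGA for miR-23a-3p and AGTCTTA for miR-499-5p. In CDS windows of that size, 10.2%, 9.55%, 11.1% and 9.76% of those of the 39 genes held at least 1 match, against 15.8%, 13.1%, 11.9% and 12.1% of all listed CDS windows. The 95% Wilson interval of WT set 2, 9.15 to 13.4, held the value of all windows. In 3′ UTR windows it was 15.4% (8 of 52), 11.1% (9 of 81), 12.4% (13 of 105) and 10.9% (12 of 110), against 24.5%, 17.2%, 17.9% and 18.6%. The intervals of the first 3, 8.01 to 27.5, 5.96 to 19.8 and 7.38 to 20.04, held the value of all windows. That of KO set 2 (6.35 to 18.1) ended just below it. Windows of adjoining peaks overlap and are not independent, so these intervals cannot decide whether the shares differ. For single microRNAs the direction varied. In the 3′ UTR miR-16-5p was above all windows in each library, at 11.5%, 7.41%, 7.62% and 6.36% against 4.22%, 3.32%, 3.20% and 3.38%. In CDS miR-23a-3p was, at 1.61%, 1.06%, 2.05% and 1.93% against 0.97%, 0.96%, 1.07% and 1.05%. In both regions miR-206-3p, let-7a-5p, miR-22-3p and miR-30a-5p were below in each library. A match says only that these letters are in the window. miR-1a-3p has the seed of miR-206-3p and miR-133a-3p that of miR-133b-3p, which was searched apart from these 10. miR-486a-5p, miR-378a-3p and miR-143-3p were not searched.

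The rest of the pathway was read from a list of 59 genes, of which 45, 47, 52 and 51 had peaks. Of their peaks, 43 of 710 (6.06%), 11 of 844 (1.30%), 36 of 1258 (2.86%) and 20 of 1361 (1.47%) were past the thresholds over input, again most in WT set 1. Over all listed peaks the shares were 3.57%, 0.848%, 1.42% and 1.23%. Pdhb, a subunit of the pyruvate dehydrogenase complex that burns pyruvate, had 6, 5, 10 and 7. Pfkfb3, which makes the activator of phosphofructokinase, had 6, 5, 5 and 3. Prkaa1, a catalytic subunit of AMP-activated kinase, had 8 in WT set 2 and 0 elsewhere. Among direct calls, KO over WT of set 1 gave 4 of 844 peaks (0.474%, against 0.179% of all), all from Pfkfb3. WT over KO of set 1 called 3 of 710 (0.423%, against 0.469%). Of these, Gsk3a (a kinase that restrains glycogen synthase) and Tbc1d1 (a brake on glucose transporter traffic) had 1 each. In set 2 KO over WT called 2 of 1361 peaks (0.147%, against 0.0144%), both from Tbc1d1. WT over KO of set 2 called 0 of 1258 (against 0.0192%).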

How the data were processed

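Chimeric AGO2 eCLIP libraries of TA muscle were made by the authors, who trimmed reads, removed PCR duplicates by molecular identifier, mapped to GRCm38 (mm10) with STAR, called peaks with CLIPper and compared each with a second library. The submitters' processing notes name UMI-tools, FastQC, cutadapt, STAR and SAMtools. The deposited lists give per peak a −log10 p (at most 400) and a log2 fold, normalized by the authors to read depth. The labels name a later GENCODE release than the M21 used here. The miR-486-enriched libraries were not analysed here.

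Peaks were joined to genes with bedtools 2.31.1, in Python 3.11.15, and placed by their midpoint (CDS before UTR, noncoding exon and intron). Calls needed a log2 fold and a −log10 p of at least 3. Whole reads were recovered from fold and p (tested on simulated data) for 400 to 812 peaks of the 39 genes per list. First-library reads from the 2 lists of a library were equal at 893 of 893 peaks. The second library's count carried 1 added read at 100 of 100 peaks, which was taken off. Peaks below 0 in both lists give no reads. Genes named with values were Pygm, Pgam2, the fast-muscle isoenzymes and partners, and any member with a call. Intervals cover counting error only. Genes and lists were chosen with earlier results of these data known. Alternatives changed thresholds, region rules, seed length, window and library set. The values of 1 gene of the wider pathway list are not reported here by name.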

Additional observations from a re-analysis of the deposited data

How the results depend on the processing

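No paired analysis was possible because the results come from no test. The direct lists already pair WT with KO within each set, and the report gives the mean and SD of the sets as a description. The peaks of the 39 genes enriched over input in WT set 1, KO set 1, WT set 2 and KO set 2 numbered 255, 71, 187 and 212 when a log2 fold of 1 sufficed and 27, 1, 4 and 5 when 4 was required. With adjoining peaks merged, an alternative chosen after seeing the data, they numbered 52, 5, 16 and 17. In the direct lists, WT over KO of set 1 gave 109 peaks with the log2 minimum at 1, 4 with it at 4 and 5 when merged, and KO over WT of set 1 gave 7 with it at 1. WT over KO of set 2 gave 4 with the log2 minimum at 1, and 1 with the −log10 p minimum at 2. KO over WT of set 2 gave 6 and 0 with the log2 minimum at 1 and 4, and 1 with the −log10 p minimum at 5. In set 2 the median log2 WT over KO changed sign with CDS peaks only (−0.022). It did so too with peaks of −log10 p at least 3 for WT over its input (−0.0070). In set 1 it changed sign with 3′ UTR peaks only (−0.073). The mean of the sets was 0.07 to 0.66 with 1 set left out. The CDS share, in the same library order, was 55.9%, 46.0%, 55.2% and 56.6% by the 5′ end of the peak. With the 3′ UTR placed before the CDS it was 65.9% in WT set 1, 61.4% in WT set 2 and 63.1% in KO set 2, and by covered length 67.7%, 54.4% and 54.4% in those 3 libraries. Sites past the thresholds in every library numbered 28 and 0 with the log2 minimum at 1 and 4. Windows with a seed match in CDS and 3′ UTR together made up 10.7%, 9.78%, 11.3% and 9.89%, with a 6-nt match 31.3%, 30.8%, 29.4% and 28.4%, and with 61-nt windows 7.27%, 5.98%, 6.11% and 5.35%. The median of Ppp1r3c in set 2 was −0.79 with CDS peaks only. The cause of these changes was not tested. Reads could not be recovered for peaks below 0 in both lists of a library, so the alternative of at least 20 reads, also chosen after seeing the data, holds few of them.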
